A study of Mus musculus with 6 samples.

Results

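The genes described here are 10 genes linked to granulocyte and mast cell granules, measured in fetal thymocytes. They were chosen by gene symbol from the log2 values of these same 6 arrays, so their own levels and differences are a description, carry no test and support nothing. All 10 were measured, each by 1 probe set, among 19937 genes with a probe set of 1 symbol. They are the primary granule genes Mpo, Prtn3, Ctsg and Elane, the S100 genes S100a8 and S100a9, the later granule genes Mmp8 and Hp, the mast cell granule gene Cpa3, and Ifitm6.

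All samples were Thy1.2+ cells, purified magnetically from Rag1-/- mouse thymi taken at E17.5. The first group (79-6) was stimulated for 40 h with anti-CD3 and 50 µM 79-6, a small-molecule inhibitor of the transcriptional repressor Bcl6. The second (DMSO) was stimulated for 40 h with anti-CD3 and the solvent DMSO, and the third (fresh) was taken at 0 h without stimulation. Each group held 2 arrays. The series design describes the stimulated material as fetal thymic organ cultures, in which thymocytes are not the only cells. The labels do not say that replicates came from separate litters or cultures, and the p-values therefore cover only array-to-array spread, which may be technical. Without Rag1, thymocytes cannot rearrange T cell receptor genes and stop at an early double-negative stage, and anti-CD3 stands in for the missing receptor signal.

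Granules are made in waves as a granulocyte matures. Promyelocytes fill primary (azurophil) granules with myeloperoxidase and serine proteases, and later cells fill secondary and tertiary granules with proteins such as the collagenase Mmp8. Mast cells store carboxypeptidase A3, the product of Cpa3, together with chymases and tryptases, and in mice Cpa3 is also transcribed in early thymic progenitors.

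Values are log2 of the deposited RMA intensity, so a difference of 1 is a factor of 2. Levels of different genes are not compared, because each probe set has its own response. Group differences were fitted with limma over all 19937 genes, and a gene was called at an adjusted p under 0.05. In 79-6 against DMSO 475 genes were called higher and 394 lower, and in DMSO against fresh 1773 higher and 2129 lower. With every array set to 1 median these became 456 higher and 684 lower, and 2388 higher and 1716 lower. Thy1, the antigen used for purification, was at 13.05 and 13.08 in 79-6, 13.20 and 13.26 in DMSO, and 12.82 and 12.78 in fresh cells. It was called higher than in fresh cells in both stimulated groups. The call in DMSO was kept with a replicate block and without any 1 array. That in 79-6 was lost with the block (adjusted p = 0.0507, limma) and without either fresh or either 79-6 array. In bulk RNA fewer cells of a type and less RNA per cell cannot be told apart.

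The 10 genes showed 3 patterns. Mpo, Prtn3, Ctsg and Elane were highest in DMSO, with 79-6 below it. S100a8, S100a9, Mmp8, Hp and Ifitm6 lay above fresh cells in DMSO, and their means in 79-6 were at or above those in DMSO. Cpa3 was lower in DMSO than in fresh cells and lower again in 79-6.

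**Figure D1:**
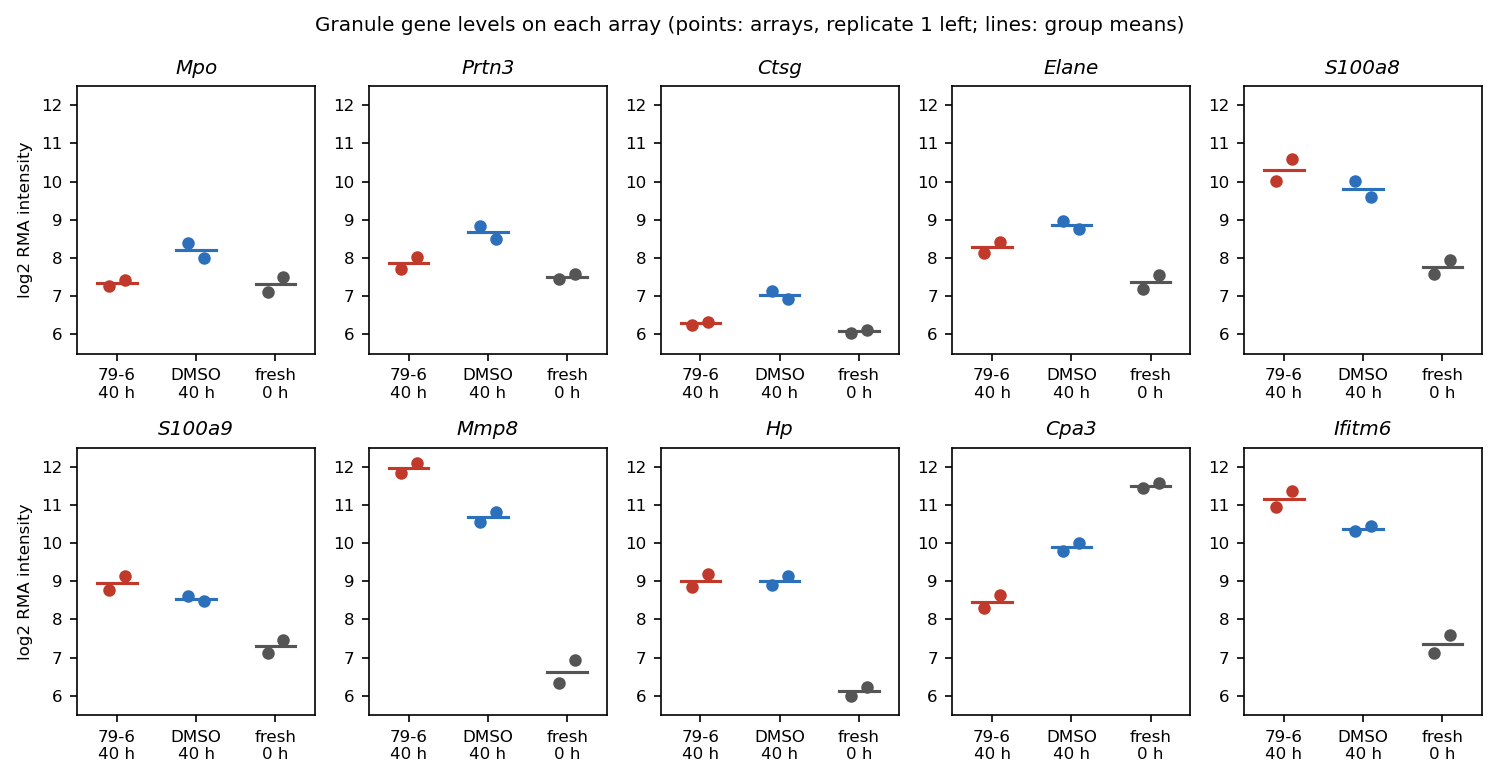
Log2 RMA intensity (y axis) of the 10 granule genes on each array, with 79-6, DMSO and fresh cells from left to right (points are arrays, lines are means of 2 arrays). Mmp8 spans 5.77 log2 units over the 6 arrays and Ctsg 1.09, and Cpa3 is the 1 gene that is highest in fresh cells.

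Mpo (probe set 10380174) encodes myeloperoxidase, which makes hypochlorous acid from hydrogen peroxide. Its log2 level was 7.28 and 7.41 in 79-6, 8.40 and 8.01 in DMSO, and 7.12 and 7.51 in fresh cells. Both 79-6 arrays lay between the 2 fresh arrays, and all 4 were below DMSO. The difference was -0.86 ± 0.16 (limma SE, n = 2 each) for 79-6 minus DMSO, 0.89 ± 0.16 for DMSO minus fresh and 0.03 ± 0.16 for 79-6 minus fresh.

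Prtn3 (probe set 10364529) encodes proteinase 3, a serine protease of primary granules and the main target of the autoantibodies in human granulomatosis with polyangiitis. It measured 7.71 and 8.03 in 79-6, 8.83 and 8.50 in DMSO, and 7.45 and 7.57 in fresh cells. The 3 groups did not overlap, and DMSO was highest. The differences were -0.80 ± 0.14 for 79-6 minus DMSO, 1.16 ± 0.14 for DMSO minus fresh and 0.36 ± 0.14 for 79-6 minus fresh (limma SE, n = 2 each).

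Ctsg (probe set 10420261) encodes cathepsin G, a granule protease with chymotrypsin-like specificity. It stood at 6.25 and 6.33 in 79-6, 7.13 and 6.92 in DMSO, and 6.05 and 6.11 in fresh cells. Here too DMSO was highest and no groups overlapped, with the 79-6 arrays close above the fresh ones. The differences were -0.74 ± 0.09 for 79-6 minus DMSO, 0.95 ± 0.09 for DMSO minus fresh and 0.21 ± 0.09 for 79-6 minus fresh (limma SE, n = 2 each).

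Elane (probe set 10364535) encodes neutrophil elastase, and inherited changes in the human gene cause severe neutropenia. Levels were 8.14 and 8.42 in 79-6, 8.98 and 8.75 in DMSO, and 7.19 and 7.56 in fresh cells, without overlap between groups. The 79-6 arrays lay between the other groups and nearer to DMSO. The differences were -0.59 ± 0.15 for 79-6 minus DMSO, 1.49 ± 0.15 for DMSO minus fresh and 0.91 ± 0.15 for 79-6 minus fresh (limma SE, n = 2 each).

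The 4 primary granule genes had similar profiles, measured as the root mean square distance between the 6 log2 values of 2 genes after each gene's mean was subtracted. The distance was 0.118 between Ctsg and Prtn3, 0.129 between Ctsg and Mpo, and at most 0.372 within the 4, between Elane and Mpo. Over the 45 pairs of the 10 genes the largest distance was 3.49, between Cpa3 and Mmp8. Among 2290 other genes with an SD of at least 0.3 over the 6 arrays, the nearest to Ctsg was Tdrkh (0.102), and the nearest to Mpo was Pdcd1 (0.162), which encodes the inhibitory receptor PD-1. Bcl2l1 (0.184) was nearest to Prtn3 and Sla (0.172) to Elane.

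The promoter sequences of these 4 genes are shown because they moved together. Each is the 250 bases before the annotated start, from RefSeq on GRCm38.p6, 5′ to 3′ on the strand of the gene. Capitals mark AGGAAGT, a form of the site bound by PU.1 (the product of Spi1) and other Ets factors, searched on both strands.
Mpo, chr11:87793534-87793783, plus strand: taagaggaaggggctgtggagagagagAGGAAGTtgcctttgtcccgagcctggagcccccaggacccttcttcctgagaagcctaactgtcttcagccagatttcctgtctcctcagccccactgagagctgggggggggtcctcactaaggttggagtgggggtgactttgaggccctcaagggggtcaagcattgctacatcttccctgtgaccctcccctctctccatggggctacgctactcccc
Prtn3, chr10:79879417-79879666, plus strand: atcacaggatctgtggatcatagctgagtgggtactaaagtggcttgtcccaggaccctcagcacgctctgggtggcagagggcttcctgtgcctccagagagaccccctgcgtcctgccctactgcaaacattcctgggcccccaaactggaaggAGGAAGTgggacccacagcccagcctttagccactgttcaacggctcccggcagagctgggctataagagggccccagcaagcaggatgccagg
Ctsg, chr14:56102575-56102824, minus strand: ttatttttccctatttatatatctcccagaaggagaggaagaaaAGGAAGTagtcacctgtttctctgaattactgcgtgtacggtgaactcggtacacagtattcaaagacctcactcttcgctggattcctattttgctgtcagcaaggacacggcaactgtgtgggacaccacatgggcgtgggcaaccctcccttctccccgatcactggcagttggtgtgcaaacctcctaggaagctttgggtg
Elane, chr10:79886062-79886311, plus strand: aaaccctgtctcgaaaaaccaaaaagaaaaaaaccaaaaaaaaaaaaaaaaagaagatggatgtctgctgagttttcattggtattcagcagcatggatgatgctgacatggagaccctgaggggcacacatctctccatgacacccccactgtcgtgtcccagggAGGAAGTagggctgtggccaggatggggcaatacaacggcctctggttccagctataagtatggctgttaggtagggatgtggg

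Each of the 4 windows held AGGAAGT once, on the strand of the gene. It began 223 bases before the start in Mpo, 94 in Prtn3, 206 in Ctsg and 84 in Elane. Among the 9 genes matched to a promoter of the table, 7 held this motif (Ctsg, Elane, Ifitm6, Mmp8, Mpo, Prtn3 and S100a8), against 7.69% of 32851 promoter windows of the same length. This form of the site was picked after the promoters of these genes had been read, so the share carries no weight and does not show binding. Prtn3 and Elane, which are adjacent on chromosome 10, also held the Myb-type letters AACGG, beginning 55 and 50 bases before the start (14.5% of all windows).

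The second pattern began with the S100 genes. S100a8 and S100a9 encode the calcium-binding partners of calprotectin, an abundant cytosolic complex of neutrophils and monocytes that binds zinc and manganese. S100a8 (probe set 10493831) was 10.003 and 10.60 in 79-6, 10.005 and 9.58 in DMSO, and 7.58 and 7.95 in fresh cells. The stimulated groups overlapped each other, and both lay well above fresh cells. Its differences were 0.51 ± 0.22 for 79-6 minus DMSO, 2.03 ± 0.22 for DMSO minus fresh and 2.54 ± 0.22 for 79-6 minus fresh (limma SE, n = 2 each).

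S100a9 (probe set 10499861) measured 8.78 and 9.14 in 79-6, 8.61 and 8.49 in DMSO, and 7.13 and 7.46 in fresh cells. The 79-6 arrays were highest, by a margin over DMSO that was smaller than the gap between the 2 79-6 arrays. The differences were 0.41 ± 0.15 for 79-6 minus DMSO, 1.25 ± 0.15 for DMSO minus fresh and 1.66 ± 0.15 for 79-6 minus fresh (limma SE, n = 2 each). Trem3 (0.099) and the lysozyme gene Lyz1 (0.116) were the nearest profiles to S100a9, and Adamdec1 (0.182) was nearest to S100a8.

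Mmp8 (probe set 10583100), the neutrophil collagenase of secondary granules, spanned the widest range of the 10 genes. It was at 11.83 and 12.10 in 79-6, 10.54 and 10.80 in DMSO, and 6.33 and 6.94 in fresh cells. The groups were widely separated, and Mmp8 was 2.46-fold higher in 79-6 than in DMSO and 16.4-fold higher in DMSO than in fresh cells. The differences were 1.297 ± 0.20 for 79-6 minus DMSO, 4.03 ± 0.20 for DMSO minus fresh and 5.33 ± 0.20 for 79-6 minus fresh (limma SE, n = 2 each). Its nearest profile was that of Lyz2 at a distance of 0.539, farther than the nearest gene of any of the other 9.

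The promoter of Mmp8 is shown as the gene with the largest differences, with ACTTCCT, the same motif on the other strand, in capitals. It began 221 bases before the start.
Mmp8, chr9:7558179-7558428, plus strand: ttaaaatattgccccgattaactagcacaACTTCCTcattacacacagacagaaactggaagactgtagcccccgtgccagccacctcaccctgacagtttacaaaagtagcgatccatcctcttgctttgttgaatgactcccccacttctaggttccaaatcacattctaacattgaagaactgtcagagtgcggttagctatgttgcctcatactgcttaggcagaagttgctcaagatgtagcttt

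Hp (probe set 10581605) encodes haptoglobin, which binds free haemoglobin and is stored in granules of mature neutrophils as well as secreted by the liver. It measured 8.84 and 9.20 in 79-6, 8.91 and 9.13 in DMSO, and 6.00 and 6.24 in fresh cells. The 79-6 arrays enclosed the DMSO arrays, with means of 9.02 in both groups, 7.47-fold and 7.45-fold above fresh cells. The differences were 0.00 ± 0.14 for 79-6 minus DMSO and 2.90 ± 0.14 for DMSO minus fresh (limma SE, n = 2 each). The nearest profile to Hp was Vcan (0.102), the gene of the matrix proteoglycan versican.

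Ifitm6 (probe set 10569020) belongs to the interferon-induced transmembrane family, whose other members restrict virus entry, and in mice its transcripts are found mainly in myeloid cells. It was 10.95 and 11.37 in 79-6, 10.32 and 10.43 in DMSO, and 7.11 and 7.59 in fresh cells. No groups overlapped. The differences were 0.79 ± 0.18 for 79-6 minus DMSO, 3.02 ± 0.18 for DMSO minus fresh and 3.81 ± 0.18 for 79-6 minus fresh (limma SE, n = 2 each). Gpr141 (0.194) had the nearest profile.

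Cpa3 (probe set 10497451) went the other way. It encodes the mast cell carboxypeptidase and measured 8.29 and 8.64 in 79-6, 9.79 and 10.004 in DMSO, and 11.45 and 11.56 in fresh cells. The groups did not overlap, and fresh cells were highest. The differences were -1.43 ± 0.13 for 79-6 minus DMSO, -1.61 ± 0.13 for DMSO minus fresh and -3.04 ± 0.13 for 79-6 minus fresh (limma SE, n = 2 each), the last an 8.21-fold lower level. No gene outside the 10 came nearer to its profile than 1700048O20Rik at 0.216.

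The promoter of Cpa3 is shown for contrast with those above. It held no AGGAAGT, and its capitals are therefore absent. It held the GATA-type letters GATAA, beginning 45 bases before the start, which were found in 22.6% of all windows and otherwise in S100a9 among these genes.
Cpa3, chr3:20242182-20242431, minus strand: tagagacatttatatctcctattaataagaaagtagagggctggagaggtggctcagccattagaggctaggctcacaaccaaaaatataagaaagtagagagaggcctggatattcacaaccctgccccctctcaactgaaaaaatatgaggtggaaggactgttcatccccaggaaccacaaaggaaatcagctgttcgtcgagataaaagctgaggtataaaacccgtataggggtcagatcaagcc

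Other motifs, searched on both strands in the same windows, fell as follows. The C/EBP-type letters TTNNGNAA were in 4 of the 9 promoters, those of Ifitm6, Mmp8, S100a8 and S100a9, and in 36.8% of all windows. TGTGGT, a Runx-type site, was in Cpa3, Ctsg, Ifitm6 and S100a9 (4614 of the 32851 windows). TATAAA was in Cpa3, Ctsg, Ifitm6 and S100a8 (12.4% of all windows). TTCNNNGAA, a form of the site shared by Bcl6 and STAT factors, was in Ctsg and Ifitm6 (7.02% of all windows), and in Ifitm6 it overlapped the Ets-type motif. These matches are descriptions of letters.

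**Figure D2:**
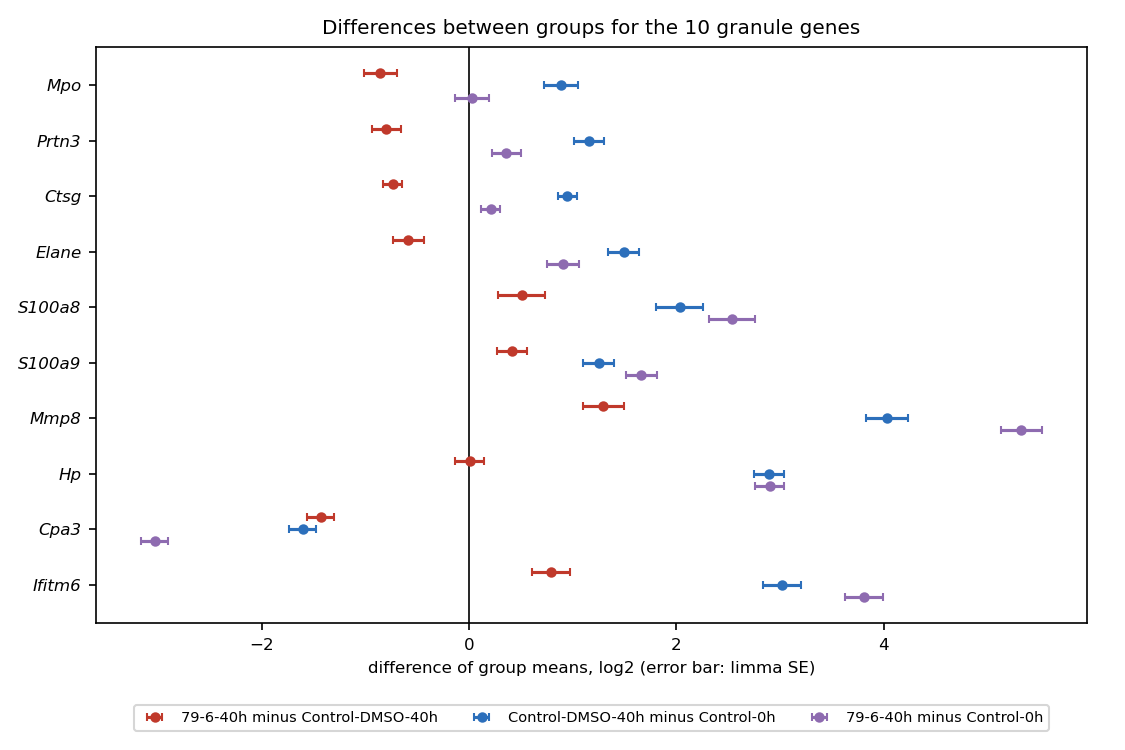
Difference of group means on the log2 scale (x axis) for each of the 10 granule genes, with limma SE as error bars, for 79-6 minus DMSO, DMSO minus fresh and 79-6 minus fresh. The primary granule genes lie between -0.86 and -0.59 for 79-6 minus DMSO, and Mmp8 reaches 5.33 for 79-6 minus fresh.

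Read against all genes, these differences were counted as follows. For 79-6 minus DMSO, limma called 1 of the 10 higher (Mmp8) and 4 lower (Cpa3, Ctsg, Mpo and Prtn3), where 2.38% of all genes were called higher and 1.98% lower, 4.36% together. The arrays did not overlap for 3 higher and 5 lower genes of the 10 (26.8% and 22.2% of all genes). Between 1 and 6 of the 10 were called when 1 array was left out: 1 without DMSO replicate 1 or 79-6 replicate 2, 2 without DMSO replicate 2, 3 without 79-6 replicate 1 and 6 without either fresh array. Cpa3 was called in all 6 of those fits. For DMSO minus fresh, 9 were called higher and Cpa3 lower (8.89% and 10.7% of all genes, 19.6% together). The arrays did not overlap for the same 10 (31.9% higher and 28.1% lower of all genes). For 79-6 minus fresh, 6 were called higher and Cpa3 lower (12.0% and 13.9% of all genes, 26.0% together), and Mpo, Prtn3 and Ctsg were not called. The arrays did not overlap for 8 higher and 1 lower (36.8% and 27.7% of all genes). Nothing is read from these counts, because the genes were chosen on the same contrasts. The comparisons share arrays and are not independent of each other.

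All 10 genes were higher in replicate 2 than in replicate 1 within 79-6, and all 10 likewise within fresh cells, while 4 were within DMSO. Over all genes the share higher in replicate 2 was 55.4% in 79-6, 52.9% in DMSO and 49.6% in fresh cells. Among 25 markers of macrophages and dendritic cells, 18 were higher in replicate 2 within 79-6, 23 within DMSO and 24 within fresh cells. The mean log2 level of these 25 markers was 8.81 and 8.85 in 79-6, 8.40 and 8.53 in DMSO, and 7.80 and 8.27 in fresh cells. It was highest in 79-6 and lowest in fresh cells, and its part in the levels of the granule genes was not tested. The mean over 13 T-lineage genes was 11.44 and 11.47 in 79-6, 11.49 and 11.53 in DMSO, and 11.28 and 11.30 in fresh cells.

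Genes outside the 10 were then examined in lists of the same systems and tested in the fit over all genes. The list counts below stand beside the shares of all genes called. These were 2.38% higher and 1.98% lower in 79-6 against DMSO, and 8.89% and 10.7% in DMSO against fresh. In 79-6 against fresh they were 12.0% and 13.9%. In the list of 11 other primary granule genes and their partners, 3 rose and 2 fell in DMSO against fresh (list median 0.09, against 0.02 over all genes). The gene of lysozyme, Lyz2, rose by 3.88 ± 0.22 (adjusted p = 5.09e-05), and Ctsc, whose product cathepsin C activates the granule serine proteases, rose by 1.12 ± 0.14 (adjusted p = 0.00184). Serpinb1a, an inhibitor of elastase, cathepsin G and proteinase 3, fell by 1.80 (adjusted p = 1.11e-04; p-values in this paragraph are limma's).

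Prss57 encodes a further serine protease of primary granules, and in DMSO minus fresh its sign was opposite to those of Prtn3 and Elane. It lies on chromosome 10 with 4 protein-coding genes between it and Prtn3. Its log2 level was 9.03 and 8.68 in 79-6, 9.35 and 9.51 in DMSO, and 11.08 and 10.94 in fresh cells, so fresh cells were highest, as for Cpa3. Prss57 fell by 1.58 in DMSO against fresh (SE 0.13, adjusted p = 2.39e-04, limma), and 79-6 minus DMSO was -0.58 ± 0.13 (adjusted p = 0.0542, limma). Both 79-6 arrays of Prss57 lay below both DMSO arrays, as for Prtn3 and Elane.

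Of the 11 primary granule genes and their partners, 1 rose and 1 fell in 79-6 against DMSO (list median 0.10). The shares of all genes there were 2.38% and 1.98%. Cst7, the gene of the protease inhibitor cystatin F, rose by 0.57 ± 0.12 (adjusted p = 0.0470, limma), and the receptor gene Clec12a fell by 0.40 (adjusted p = 0.0417, limma). Cst7 was not called without either DMSO or either 79-6 array, and Clec12a in none of the 6 fits without 1 array.

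Genes of secondary and tertiary granules divided. Of 21 measured, 6 rose and 1 fell in DMSO against fresh (list median 0.18), among them Itgb2 (1.67 ± 0.17, adjusted p = 6.24e-04), Itgam (1.55 ± 0.22, adjusted p = 0.00291), which together encode the integrin Mac-1, and Lyz1 (1.37 ± 0.10, adjusted p = 1.37e-04). Lcn2, the siderophore-binding lipocalin, rose by 1.46 ± 0.30 (adjusted p = 0.0134), a call lost without either fresh array or DMSO replicate 2. Rises numbered 3 without fresh replicate 1 and 4 without either DMSO array. Ltf (lactoferrin), Camp (cathelicidin), Ngp and Mmp9 were not called, with differences of 0.19, 0.26, 0.32 and -0.29. All p-values here are adjusted and from limma.

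The same 21 genes had a median difference of 0.25 in 79-6 against DMSO, against 0.02 over all genes, and 20 were above 0. With all arrays Stfa3, a cystatin-type protease inhibitor gene of neutrophils, was the 1 called, at 6.89 and 6.90 in 79-6, 5.41 and 5.45 in DMSO, and 4.94 and 5.24 in fresh cells. It rose by 1.47 ± 0.10 (adjusted p = 0.00151, limma), and the call held in all 6 fits without 1 array. Itgam was also called without either fresh array, and Ltf and Ngp without 79-6 replicate 1, which made 2 and 3 rises. Stefin genes are closely related, so its probe set can also read its relatives. Ltf was at 6.74 and 7.16 in 79-6, against 6.43 and 6.52 in DMSO, without a call (adjusted p = 0.0948, limma). In fresh cells Ltf was at 6.30 and 6.28, and limma called it higher in 79-6 than in fresh cells. For 79-6 against fresh 8 of the 21 were called higher and 1 lower (12.0% and 13.9% of all genes). Camp, Ngp and Mmp9 were not called there.

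The NADPH oxidase supplies the superoxide from which the hydrogen peroxide used by myeloperoxidase is made. In DMSO against fresh, 3 of its 5 measured subunit genes rose, led by Cybb (2.41 ± 0.26, adjusted p = 8.95e-04, limma). Only 1 rose when fresh replicate 1 or DMSO replicate 2 was left out, and 2 when DMSO replicate 1 was. Ncf4 rose by 0.90 ± 0.12 in 79-6 against DMSO (adjusted p = 0.0147, limma), the 1 call of the 5, and none did without either DMSO array or 79-6 replicate 2.

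**Figure D3:**
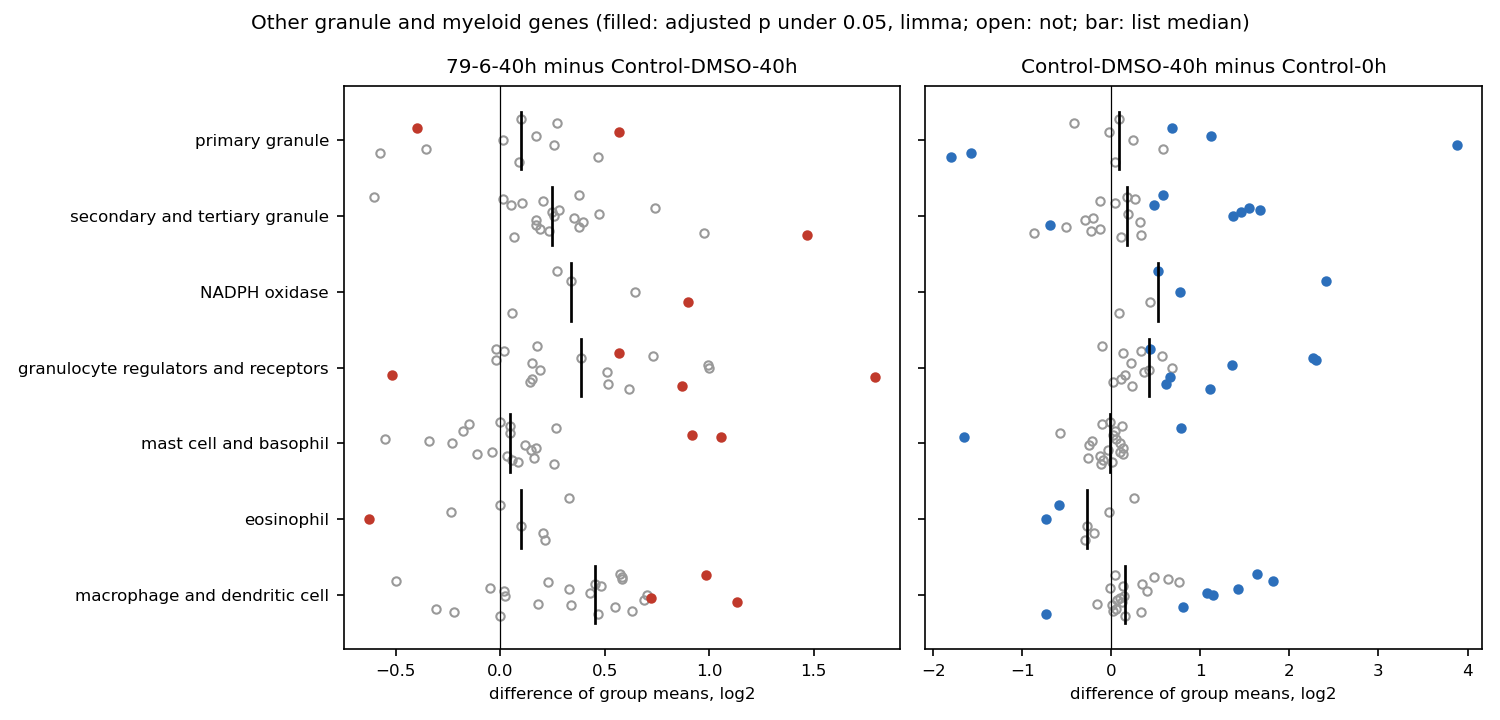
Difference of group means on the log2 scale (x axis) for the measured genes of 7 lists, none of them among the 10, for 79-6 minus DMSO (left) and DMSO minus fresh (right). Filled points passed an adjusted p of 0.05 (limma), open points did not, and vertical bars are list medians. In the right panel Lyz2 lies farthest right at 3.88, and most mast cell genes lie near 0.

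In the list of granulocyte regulators and receptors more genes were called higher than lower, but not all of its genes moved. Over all genes 8.89% were called higher and 10.7% lower in DMSO against fresh. In DMSO against fresh 7 of 19 rose and none fell (list median 0.43), with 11 rises without fresh replicate 2, and 4 when the omitted array was fresh replicate 1 or DMSO replicate 2. The lectin receptor genes Clec5a (2.30 ± 0.18, adjusted p = 2.31e-04) and Clec4e (2.26 ± 0.14, adjusted p = 6.81e-05) and the shared cytokine receptor chain Csf2rb (1.36 ± 0.22, adjusted p = 0.00524) led the rises by limma. Spi1, the gene of PU.1, rose by 0.61 ± 0.16 (adjusted p = 0.0320, limma), a call lost without fresh replicate 1 or either DMSO array. It measured 10.78 and 10.98 in 79-6, 10.24 and 10.49 in DMSO, and 9.54 and 9.97 in fresh cells. Ly6g, Csf3r, Cxcr2, Cebpa and Cebpe were not called in DMSO against fresh. Ly6g was at 5.84 and 5.89 in 79-6, 5.50 and 5.95 in DMSO, and 5.67 and 5.75 in fresh cells. For 79-6 against fresh limma called 13 of the 19 higher and 1 lower (12.0% and 13.9% of all genes). Csf3r, Cxcr2 and Cebpe were among the 13, and Ly6g and Cebpa were not called.

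Of the 19, 3 rose and 1 fell in 79-6 against DMSO (list median 0.39), where 2.38% of all genes were called higher and 1.98% lower. Il1r2, a decoy receptor for interleukin-1, was at 9.40 and 9.60 in 79-6, 7.55 and 7.86 in DMSO, and 6.90 and 7.20 in fresh cells. It rose by 1.79 ± 0.14 (adjusted p = 0.00244, limma) and held in all 6 fits without 1 array. Cebpe, the factor that switches on secondary granule genes, rose by 0.57 ± 0.12 (adjusted p = 0.0489, limma), a call that held in 1 of those 6 fits, the one without 79-6 replicate 1. Gfi1, a repressor needed for neutrophil maturation, fell by 0.52 (adjusted p = 0.0280, limma), which was lost without either DMSO array or 79-6 replicate 2. The rises numbered 1 without either DMSO array or 79-6 replicate 2, and 6 without either fresh array.

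Among the 10 genes Cpa3 alone stands for mast cells. Of 21 other mast cell and basophil genes measured, 17 were called in none of the 3 comparisons by limma. Fcer1g, Hpgds, Kit and Mitf, none of them restricted to mast cells, were called in at least 1. The calls of Kit held in every fit without 1 array. Those of Hpgds in 79-6 against DMSO, Fcer1g in DMSO against fresh and Mitf in 79-6 against fresh did not. Limma called 2 higher in 79-6 against DMSO, and 1 higher and 1 lower in DMSO against fresh. Over all genes 4.36% were called in 79-6 against DMSO, 19.6% in DMSO against fresh and 26.0% in 79-6 against fresh. The share of all genes called in none was not counted, so the 17 are not read as a trait of mast cell genes. The 17 included genes that define mast cells, the chymase genes Cma1, Mcpt1 and Mcpt4, the tryptase genes Tpsb2 and Tpsab1, and the chains of the IgE receptor Fcer1a and Ms4a2. Fcer1a lay between 4.32 and 4.64 and Ms4a2 between 4.61 and 4.89 on all 6 arrays. Cma1 lay between 5.07 and 5.62. Hdc, also among the 17, was at 7.28 and 7.60 in 79-6, 7.38 and 7.41 in DMSO, and 7.71 and 8.22 in fresh cells. Both stimulated groups of Hdc lay below fresh cells without overlap, as for Cpa3. Of the 21 genes, 6 lay lower without overlap and 2 higher in DMSO against fresh (28.1% and 31.9% of all genes). In 79-6 against fresh these were 4 lower and 5 higher (27.7% and 36.8% of all genes). The mast cell count depended on the fresh arrays: for 79-6 against fresh 3 genes were called higher and 1 lower with all arrays, 2 higher and 4 lower without fresh replicate 1, and 5 higher and 3 lower without fresh replicate 2. The added calls were Mcpt4, Cma1 and Hdc without fresh replicate 1, and Mcpt1, Mcpt2, Mcpt4 and Tpsb2 without fresh replicate 2. Mcpt4 was at 5.53 and 5.64 in 79-6, 5.70 and 5.94 in DMSO, and 5.11 and 6.33 in fresh cells, so its 2 fresh arrays differed by more than any other pair of its replicates. Detection calls were not used here, so whether such probe sets read above background is not known. Members of the Mcpt family can also share probes.

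Kit, the stem cell factor receptor of mast cells and of early thymic progenitors, was at 8.92 and 8.98 in 79-6, 7.80 and 7.98 in DMSO, and 9.48 and 9.62 in fresh cells. It fell by 1.65 in DMSO against fresh (SE 0.09, adjusted p = 4.62e-05, limma) and rose by 1.06 ± 0.09 in 79-6 against DMSO (adjusted p = 0.00314, limma). The difference between 79-6 and DMSO was thus positive for Kit and negative for Cpa3. Among 14 genes of early thymic progenitors, 6 fell in DMSO against fresh and none rose (list median -0.34), and 2 rose and 1 fell in 79-6 against DMSO (list median 0.12), with 1 rise without either DMSO array or 79-6 replicate 2.

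Of 7 eosinophil genes 2 fell in DMSO against fresh, Il5ra by 0.73 (adjusted p = 0.00205) and Ear6 by 0.58 (adjusted p = 0.00278), and Il5ra also fell by 0.63 in 79-6 against DMSO (adjusted p = 0.0195), all by limma. The last call was lost without either DMSO array or 79-6 replicate 2.

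Of the 25 macrophage and dendritic cell markers, 6 were called higher and 1 lower in DMSO against fresh (list median 0.15), with 3 rises without DMSO replicate 2, 4 without DMSO replicate 1 and 10 without fresh replicate 2. Ccr2, a chemokine receptor of monocytes, rose by 1.82 ± 0.16 (adjusted p = 3.43e-04, limma). Compared with fresh cells, 79-6 had 16 of the 25 called higher and none lower (list median 0.805, with 12.0% and 13.9% of all genes called). In 79-6 against DMSO 3 rose (list median 0.45), among them Itgax by 1.14 ± 0.13 (adjusted p = 0.00732, limma). None rose without DMSO replicate 1 or 79-6 replicate 2, 1 without 79-6 replicate 1, 2 without DMSO replicate 2 and 8 without either fresh array.

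Most other measured genes of the S100 and matrix metalloproteinase families were not called in DMSO against fresh or in 79-6 against DMSO. Among all genes 8.89% were called higher and 10.7% lower in DMSO against fresh, and 2.38% and 1.98% in 79-6 against DMSO. Detection calls were not used, so whether the probe sets without a call read above background is not known. The counts are therefore not read as a trait of either family. Of 15 other S100 genes 2 rose and 1 fell in DMSO against fresh (list median -0.02), with S100a10 at 0.63 ± 0.07 (adjusted p = 8.79e-04, limma). In 79-6 against DMSO 2 rose (list median 0.08), S100a10 by 0.52 ± 0.07 (adjusted p = 0.0126) and S100a11 by 0.38 ± 0.08 (adjusted p = 0.0450, limma), and neither was called without either DMSO array or 79-6 replicate 2. S100a11 was also lost without either fresh array and with all arrays set to 1 median. Of 17 other matrix metalloproteinase genes 2 rose in DMSO against fresh, including the macrophage elastase gene Mmp12 (1.77 ± 0.34, adjusted p = 0.0108, limma), which was not called without DMSO replicate 2. None of the 17 was called by limma in 79-6 against DMSO with all arrays, where 4 had an unadjusted p under 0.05, and Mmp13 was called higher without either fresh array.

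Of 6 other genes of the Ifitm family, 3 fell in DMSO against fresh and none rose (10.7% and 8.89% of all genes). These were Ifitm2 by 1.17 (adjusted p = 8.25e-05), Ifitm3 by 0.78 (adjusted p = 0.00331) and Ifitm1 by 0.58 (adjusted p = 0.00717, limma). Ifitm2 had 3 probe sets and Ifitm1 had 2, and only the brightest of each is given. The differences of Ifitm5, Ifitm7 and Ifitm10 were 0.04, -0.02 and -0.02. In 79-6 against DMSO Ifitm1 rose by 1.04 ± 0.10 (adjusted p = 0.00421, limma), and it was not called without DMSO replicate 2. Ifitm1 was at 13.04 and 13.28 in 79-6, 12.13 and 12.10 in DMSO, and 12.61 and 12.78 in fresh cells.

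Of 13 T-lineage genes 6 rose and 5 fell in DMSO against fresh (8.89% and 10.7% of all genes). None of the 13 was called by limma in 79-6 against DMSO (4.36% of all genes), where 5 had an unadjusted p under 0.05. Of 10 granzyme genes, some of which share the locus of Ctsg, 1 rose (Gzma) and 2 fell (Gzmb and Gzmc) in DMSO against fresh. The shares of all genes there were 8.89% and 10.7%. Gzmb rose and Gzma fell in 79-6 against DMSO, with each call lost in 3 of the 6 fits without 1 array. Neither held without DMSO replicate 2 or 79-6 replicate 2, and 2 granzyme genes rose without either fresh array. Gzmc in DMSO against fresh was lost without either DMSO or either 79-6 array.

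Chromosomal neighbours were examined as the 4 protein-coding genes on each side in RefSeq, a choice made after the values were seen. Of 57 measured neighbours 2 rose and none fell in 79-6 against DMSO, 5 rose and 5 fell in DMSO against fresh, and 7 rose and 5 fell in 79-6 against fresh (limma). Over all genes 4.36%, 19.6% and 26.0% were called in these comparisons. The 5 rises in DMSO against fresh were Hps3 (0.32), Hltf (0.40) and Cpb1 (0.25) near Cpa3, and Txnl4b (0.41) and Zfp821 (0.94) near Hp. The 5 falls were Gyg (-0.34) near Cpa3, and Ifitm1 (-0.58), Ifitm2 (-1.17), Ifitm3 (-0.78) and B4galnt4 (-1.17) near Ifitm6. Ifitm2 was read by the brightest of its 3 probe sets, and whether that probe set reads this locus was not checked. The 2 rises in 79-6 against DMSO were Ifitm1 (1.04) and B4galnt4 (0.35). Around Prtn3 and Elane none of 7 measured neighbours was called in 79-6 against DMSO or in DMSO against fresh, and their differences lay between -0.19 and 0.10. Around S100a8 and S100a9 none of the 5 measured neighbours was called in either. Palm, near Prtn3, fell by 0.29 in 79-6 against fresh (adjusted p = 0.0431), and S100a6 rose by 0.49 (adjusted p = 0.0289, limma). Around Ctsg, the mast cell protease genes Mcpt2, Mcpt4 and Mcpt8 on one side and granzyme genes on the other were not called.

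**Figure D4:**
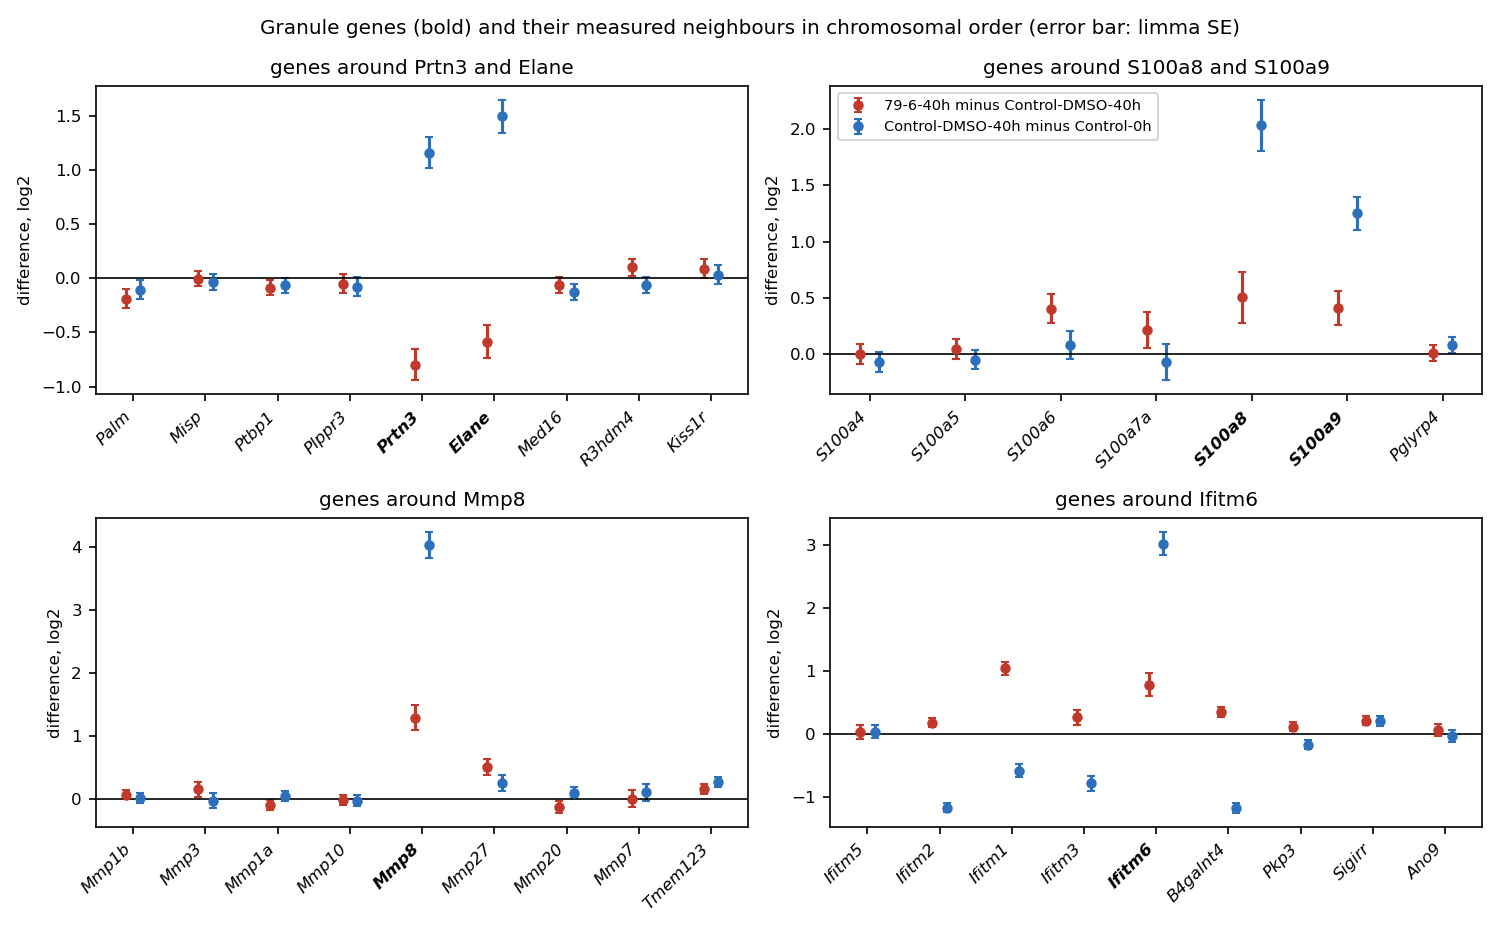
Difference of group means on the log2 scale (y axis, limma SE as error bars) for 4 loci, with genes in chromosomal order on the x axis and granule genes in bold, for 79-6 minus DMSO and DMSO minus fresh. Mmp8 stands at 4.03 for DMSO minus fresh among neighbours between -0.02 and 0.28, and Ifitm6 at 3.02 between Ifitm3 at -0.78 and B4galnt4 at -1.17.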

How the data were processed

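RNA of Thy1.2+ cells was hybridised to 6 one-colour Affymetrix whole-transcript arrays, 2 per group, per the labels. Per the submitters' processing notes the authors made the values by RMA, and oligo is named beside it, with versions not given here. The deposited values hold RMA intensities on the linear scale (8.75 to 25316), and log2 was taken before every test. The design had assumed log2 values. Median array intensities lay between 99.3 and 103.6. Arrays give no counts, so their number limits the precision.

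Of 34760 probe sets 21640 had 1 gene symbol, 1321 several and 11799 none. 21553 matched a RefSeq gene by Entrez identifier. The brightest probe set stood for each of 19937 genes. All 6 arrays were fitted with 1 mean per group by limma 3.58.1 in R 4.3.3, with 3 residual and 4.24 prior degrees of freedom. Tests were two-sided and p-values adjusted over all genes by Benjamini-Hochberg. The fit was tested on simulated data.

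The 10 genes and 13 lists (199 entries, 184 measured) were chosen with earlier results of these data known. Named were the 10 genes, the called list genes with the largest changes, those with the smallest p where none was called, any genes of the granule, mast cell, regulator, S100 and Ifitm lists, and the genes nearest in profile. Promoters came from RefSeq (GRCm38.p6), with 9 of the 10 genes matched. The genome build of the probe sets is not stated in what was used. The correlation over genes between deviations of equally numbered arrays was 0.0036, 0.0948 and -0.0740, and the labels do not say that numbers pair arrays, so the main fit had no block. Alternatives were 1 median for all arrays, a minimum mean log2 of 6, the mean of all probe sets, a replicate block, eBayes with trend and robust, the 4 compared arrays alone, and leaving out each array.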

Additional observations from a re-analysis of the deposited data

How the results depend on the processing

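The median difference of the 10 genes was -0.29 for 79-6 minus DMSO (-0.45 to -0.13 without 1 array), 1.37 for DMSO minus fresh (1.20 to 1.55) and 1.28 for 79-6 minus fresh (1.11 to 1.46). Of 270 recomputed differences of single genes 265 kept their sign. The 5 others were of Hp in 79-6 minus DMSO and of Mpo in 79-6 minus fresh, both close to 0. With eBayes trend and robust settings the genes called in 79-6 against DMSO numbered 1723 in place of 869, and the list genes 34 in place of 22. Leaving out 1 array gave 93 to 661 genes and 5 to 31 list genes in that comparison, 2286 to 4070 and 47 to 68 in DMSO against fresh (3902 and 61 with all arrays), and 3081 to 5068 and 67 to 85 in 79-6 against fresh (5174 and 88). The lowest counts for 79-6 against DMSO came without DMSO replicate 1 (113), DMSO replicate 2 (93) or 79-6 replicate 2 (127), each leaving 1 array in a group that was assumed to vary like the others. Of the 22 list calls there, Il1r2, Kit, Lmo2 and Stfa3 held in all 6 such fits. With the replicate block the genes called in 79-6 against DMSO numbered 774, in DMSO against fresh 3667 and in 79-6 against fresh 4852. The numbers are not known to pair arrays.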
